A study of Homo sapiens with 9 samples.

Results

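The genes described here encode 10 receptor chains through which blood-forming and myeloid cells sense growth factors and cytokines: CSF1R, CSF2RA, CSF2RB, CSF3R, IL3RA, IL7R, IL6R, IL10RA, IFNGR1 and IFNAR1. They were chosen by name, and all 10 were found among the 18522 genes of the deposited table. The samples were THP-1 cells, an established human acute monocytic leukemia line, sequenced as poly(A) RNA. Cells had been transduced by lentivirus with shCTRL, the control hairpin, or with shRASSF2-1 or shRASSF2-2, 2 hairpins directed at RASSF2, and every group, the control included, had been kept in 1 ug/mL puromycin for 96 h. Each group had 3 libraries, each shRNA was a single hairpin construct, and RNA came from 2.0 M viable cells. RASSF2 encodes a Ras association domain protein that binds kinases of the Hippo pathway.

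Most of these chains have no kinase of their own. Cytokine receptors carry Janus kinases (JAKs) on their intracellular parts, ligand binding brings the chains together, and the JAKs then phosphorylate STAT transcription factors that enter the nucleus. CSF1R is the exception: it is a receptor tyrosine kinase, and its ligand M-CSF sustains monocytes and macrophages. In myeloid cells GM-CSF and IL-3 drive growth and differentiation, G-CSF acts on granulocytes and their precursors, IL-10 restrains macrophage activation, and interferons induce antiviral and antigen presentation genes.

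The promoters of CSF1R, CSF3R, IL7R and IL6R are shown because these 4 members each had a different pattern over the groups. Each line gives 300 bases that end shortly after a transcription start, 5′ to 3′ on the gene's strand, from RefSeq on GRCh38.p14. RefSeq lists another start for CSF1R, farther upstream, and for CSF3R, farther downstream, whose window (chr1:36482864-36483163) also holds the ETS core and the C/EBP form. For CSF1R the downstream start printed here is the one known for myeloid transcripts. Capitals mark matches on either strand to GAGGAA, a core bound by ETS family factors such as PU.1, to TTNNGNAA, a form of the C/EBP site, and to TGTGGT, a RUNX core.

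CSF1R chr5:150086505-150086804 (minus strand): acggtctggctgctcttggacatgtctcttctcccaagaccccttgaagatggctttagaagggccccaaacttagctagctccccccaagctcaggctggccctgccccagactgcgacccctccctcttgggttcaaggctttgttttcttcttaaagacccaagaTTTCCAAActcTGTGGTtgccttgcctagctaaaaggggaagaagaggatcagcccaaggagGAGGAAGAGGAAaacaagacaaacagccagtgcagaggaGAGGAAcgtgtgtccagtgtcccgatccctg

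CSF3R chr1:36483265-36483564 (minus strand): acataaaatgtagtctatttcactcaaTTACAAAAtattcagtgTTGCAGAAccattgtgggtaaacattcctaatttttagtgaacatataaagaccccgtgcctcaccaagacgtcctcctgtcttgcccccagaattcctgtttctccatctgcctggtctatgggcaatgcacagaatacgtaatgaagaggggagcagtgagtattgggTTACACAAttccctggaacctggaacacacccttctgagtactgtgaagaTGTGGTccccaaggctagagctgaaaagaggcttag

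IL7R chr5:35856641-35856940 (plus strand): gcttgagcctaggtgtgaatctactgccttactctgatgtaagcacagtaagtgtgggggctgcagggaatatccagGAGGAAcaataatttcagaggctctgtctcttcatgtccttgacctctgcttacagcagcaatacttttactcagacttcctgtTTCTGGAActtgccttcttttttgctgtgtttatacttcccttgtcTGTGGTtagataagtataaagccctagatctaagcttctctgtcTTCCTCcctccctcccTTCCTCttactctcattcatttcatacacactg

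IL6R chr1:154405093-154405392 (plus strand): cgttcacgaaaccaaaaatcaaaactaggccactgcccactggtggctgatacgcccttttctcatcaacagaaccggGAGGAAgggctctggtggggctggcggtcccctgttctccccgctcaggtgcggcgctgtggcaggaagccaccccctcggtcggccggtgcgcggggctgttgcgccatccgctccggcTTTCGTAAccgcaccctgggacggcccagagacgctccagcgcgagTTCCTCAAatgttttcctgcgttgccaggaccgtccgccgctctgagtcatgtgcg

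Of 35116 RefSeq promoter windows of this length, 27.9% held GAGGAA or its complement, 36.8% the C/EBP form and 13.1% the RUNX core. The CSF1R window held all 3 kinds, with GAGGAA on the gene's strand 3 times. The IL7R window also held all 3 kinds, the CSF3R window held the C/EBP form 3 times and the RUNX core once, and the IL6R window held the ETS core and the C/EBP form, which overlap at the second match of each. A match to these letters is a description of the window and not a bound site. RefSeq windows were matched by symbol for 9 members; CSF2RB had no entry.

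All levels below are normalized read counts as the authors deposited them, and a group's level is its mean ± SD (n = 3). Changes are log2 fold changes of (value + 1) with the standard error of the fit. A gene was called when the Benjamini-Hochberg adjusted p of limma over all 15465 genes tested was under 0.05. Libraries held 13.3 to 20.1 M reads. RASSF2 mRNA was 1064 ± 48.4 in control libraries, 164 ± 32.2 under shRASSF2-1 and 311 ± 43.5 under shRASSF2-2, with each knockdown library below each control. Whether the 3 libraries of a group are separate cultures is not in the labels. The p-values thus reflect the spread among these libraries alone, and that spread may be technical. Of the controls, replicates 1 and 2 were run on a different flow cell from the remaining 7 libraries. Replicate 1 of the controls differed most, with a chi-square per degree of freedom of 69.0 and 80.3 against the other two and 9.16 between those. Both comparisons with control use the same 3 control libraries.

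All 10 receptor genes passed the filter on low values. With shRASSF2-1, 3 members rose (IL7R, IFNGR1 and IL10RA), 3 fell (IL6R, CSF2RB and IFNAR1) and 4 were not called. With shRASSF2-2, 6 members rose (IFNGR1, IL7R, IL10RA, CSF1R, CSF2RB and IFNAR1), 1 fell (CSF3R) and 3 were not called. The median log2 fold change of the 10 members was 0.05 under shRASSF2-1, where that of all genes tested was 0.02, and 1.24 under shRASSF2-2, where that of all genes was 0.04. Of all genes, 56.1% were called under shRASSF2-1, 26.9% up and 29.2% down, so that 6 of 10 is near the background; knockdown and control libraries did not overlap for 3 members higher and 3 lower, against 61.3% of all genes, 29.9% higher and 31.3% lower. Of all genes, 60.9% were called under shRASSF2-2, 31.8% up and 29.1% down, so that 7 called is near the background and the 6 of 10 up lie above it; libraries did not overlap for 6 members higher and 1 lower, against 64.5% of all genes, 33.9% higher and 30.6% lower. Between the knockdowns, 6 members were higher under shRASSF2-2, CSF3R was lower and 3 were not called (median 1.35, against -0.03 for all genes), where 58.5% of all genes were called, 30.0% up and 28.5% down; libraries did not overlap for 6 members higher and 1 lower, against 74.0% of all genes, 36.8% higher and 37.2% lower. Without control replicate 1, 4 members rose and 3 fell under shRASSF2-1, and 6 rose and 1 fell under shRASSF2-2. The summed values of the shRASSF2-1 libraries were lower than those of the others, and scaling all libraries to equal totals raised the median change of all genes under shRASSF2-1 to 0.39, at which 6 members rose and 2 fell. Under that scaling 72.9% of all called genes were up under shRASSF2-1, against 48.0% without it, and between the knockdowns 28.4% were up against 51.3%.

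**Figure D1:**
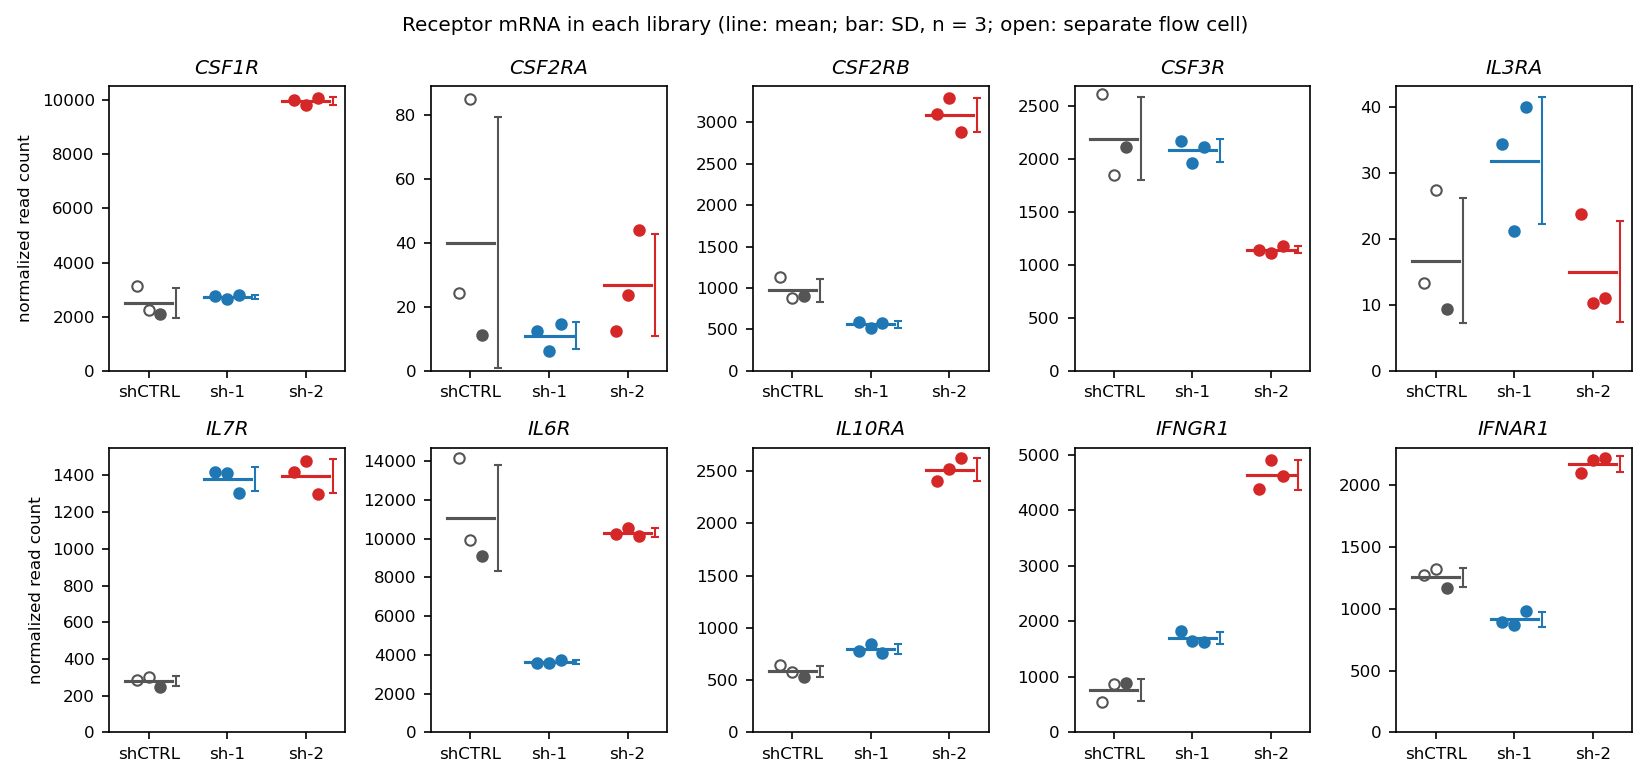
Normalized read count of each receptor gene in each library (y axis, linear from 0) by group (sh-1 is shRASSF2-1, sh-2 is shRASSF2-2); lines are means, bars SD of 3 libraries, and open points the 2 controls on a separate flow cell. IL7R lies between 1297 and 1476 under either shRNA, CSF1R lies between 9818 and 10088 under shRASSF2-2, and IL6R is lowest under shRASSF2-1.

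**Figure D2:**
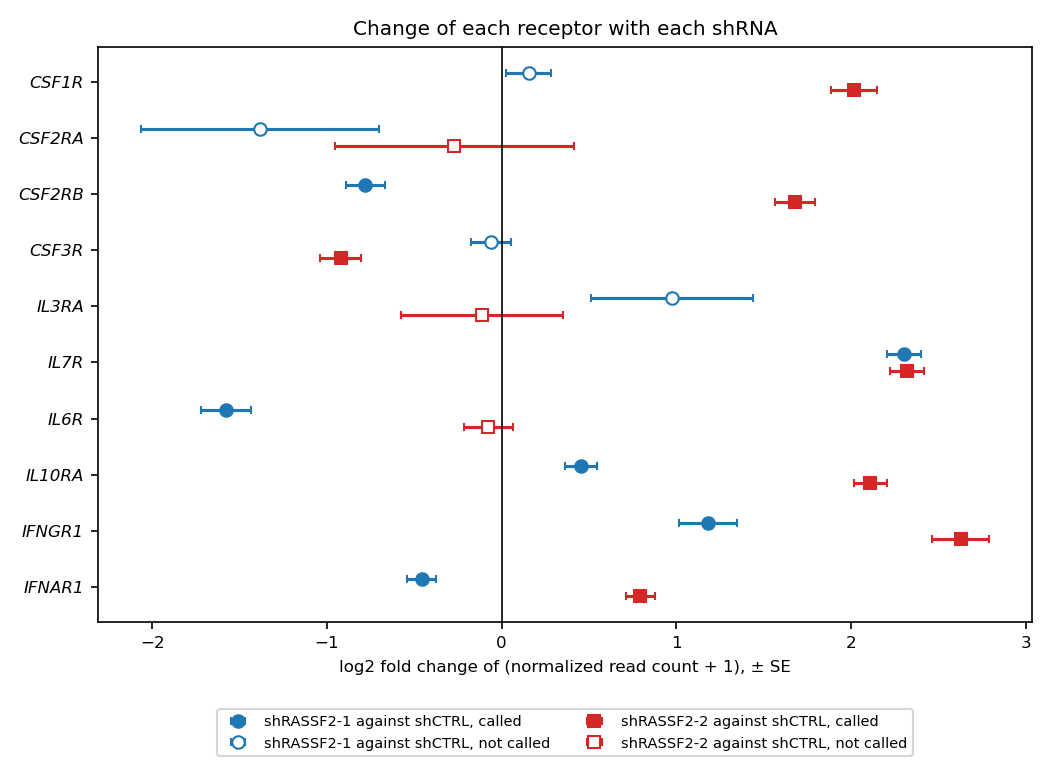
Log2 fold change of each receptor gene against control (x axis, of normalized read count + 1) with its standard error, for shRASSF2-1 (circles) and shRASSF2-2 (squares); filled points were called. CSF2RB and IFNAR1 lie on opposite sides of 0 with the 2 shRNAs, and the points of IL7R lie together at 2.30 and 2.32.

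CSF1R, the M-CSF receptor, rose 4.05-fold under shRASSF2-2. The gene lies on chromosome 5 from 150053295 to 150113365 on GRCh38. Its normalized read counts were 3147, 2256 and 2098 in control libraries, 2763, 2658 and 2792 under shRASSF2-1, and 10000, 9818 and 10088 under shRASSF2-2. The shRASSF2-2 libraries all lay above every other library, and the shRASSF2-1 libraries lay within the range of the controls. The log2 fold change was 2.02 ± 0.13 under shRASSF2-2 (limma adjusted p = 3.65e-07) and 0.15 ± 0.13 under shRASSF2-1 (limma adjusted p = 0.341), and the difference between the shRNAs was 1.86 ± 0.13 (limma adjusted p = 8.26e-07). Control replicate 1 was the highest of the controls: without it the value under shRASSF2-1 was 0.33 and was called (limma adjusted p = 0.000162). Among the 7 libraries that shared a flow cell, which hold 1 control, it was 0.38. At equal totals it was 0.53 and called (limma adjusted p = 0.00319), and with the flow cell as a covariate it was 0.38 and not called (limma adjusted p = 0.0769).

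A ligand of CSF1R rose with each shRNA. CSF1, which encodes M-CSF, had 87.1, 92.2 and 122 in control libraries, 158, 206 and 179 under shRASSF2-1, and 376, 351 and 269 under shRASSF2-2. None of the groups overlapped. The log2 fold changes were 0.85 ± 0.18 (limma adjusted p = 0.00257) and 1.72 ± 0.18 (limma adjusted p = 1.52e-05); with flow cell as a covariate the value under shRASSF2-1 was 0.56 and was not called (limma adjusted p = 0.0802). TYROBP, an adaptor that macrophages use downstream of CSF1R among other receptors, had 1120, 2100 and 2260 in control libraries, 1159, 1139 and 1023 under shRASSF2-1, and 10513, 10823 and 11254 under shRASSF2-2. Its change was 2.64 ± 0.21 under shRASSF2-2 (limma adjusted p = 1.94e-06) and -0.66 ± 0.21 under shRASSF2-1 (limma adjusted p = 0.0232), where control replicate 1 lay among the shRASSF2-1 libraries. That call did not hold when scaled to equal totals (-0.28) or when control replicate 2 (-0.52) or 3 (-0.47), or replicate 2 (-0.68) or 3 (-0.60) of the knockdown, was left out.

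CSF2RB, the common beta chain that signals for GM-CSF, IL-3 and IL-5, moved in opposite directions with the 2 shRNAs, as did IFNAR1; of all genes 8.05% were called in opposite directions in these comparisons, which share their controls. CSF2RB is on chromosome 22 from 36913628 to 36940439. Its values were 1133, 878 and 900 in control libraries, 593, 515 and 577 under shRASSF2-1, and 3100, 3293 and 2882 under shRASSF2-2. Every shRASSF2-1 library lay below every control and every shRASSF2-2 library above. CSF2RB fell by 0.78 on the log2 scale under shRASSF2-1 (SE 0.11, limma adjusted p = 0.000196; -0.40 and still called when scaled to equal totals) and rose by 1.68 under shRASSF2-2 (SE 0.11, limma adjusted p = 4.61e-07). The direct difference between the knockdowns was 2.46 ± 0.11, a 5.50-fold higher level under shRASSF2-2 (limma adjusted p = 3.92e-08). A pseudogene, CSF2RBP1, is annotated in GENCODE, and the sources used here do not give how reads shared with it were counted.

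The ligand-binding alpha chains for GM-CSF and IL-3 were near the bottom of the range and were not called. CSF2RA had 24.2, 84.7 and 11.2 in control libraries, 12.4, 6.2 and 14.5 under shRASSF2-1, and 12.5, 23.8 and 44.0 under shRASSF2-2. IL3RA, also known as CD123, had 13.3, 27.4 and 9.4 in control libraries, 34.3, 21.2 and 39.9 under shRASSF2-1, and 23.8, 10.2 and 10.99 under shRASSF2-2. The groups overlapped for both genes, and control replicate 2 was the highest control in each. The values for CSF2RA were -1.38 ± 0.68 (limma adjusted p = 0.109) and -0.27 ± 0.68 (limma adjusted p = 0.75). Those for IL3RA were 0.98 ± 0.46 (limma adjusted p = 0.0968) and -0.11 ± 0.46 (limma adjusted p = 0.847). On the recovered reads edgeR gave -1.86 for CSF2RA under shRASSF2-1 (edgeR adjusted p = 0.0483) and DESeq2 gave -1.86 (DESeq2 adjusted p = 0.0222). With the flow cell as a covariate it was -0.10 and not called (limma adjusted p = 0.934), and without control replicate 2 it was -0.62 and not called. Among the 7 libraries that shared a flow cell, which hold 1 control, it was also -0.10. IL3RA under shRASSF2-1 was 1.62 among those 7 libraries. With the flow cell as a covariate it was also 1.62 and not called (limma adjusted p = 0.0597). Leaving out a single library also made calls under shRASSF2-1: CSF2RA was -2.02 without control replicate 3, and IL3RA was 1.38 without control replicate 2. Between the knockdowns IL3RA, at -1.09 and not called, was called without control replicate 1 or 2 (-1.09 each) and without shRASSF2-2 replicate 1 (-1.45).

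Both genes lie in pseudoautosomal region 1, a stretch whose sequence is the same on X and Y in GRCh38, and the sources used here do not give how reads matching both copies were counted. CSF2RA is at 1268814 to 1325218 and IL3RA at 1336785 to 1382689 on X. CD99, another gene of that region, had 24.2, 443 and 422 in control libraries, 412, 317 and 45.4 under shRASSF2-1, and 916, 104 and 944 under shRASSF2-2. SLC25A6, an ADP/ATP carrier of that region, had 34.2 normalized reads per kb of exon in control libraries, where SLC25A5, a carrier of the same family elsewhere on X, had 4075. CD99 and SLC25A5 were chosen after their values were seen. SLC25A6 had changes of -0.98 (not called) and -1.68 under shRASSF2-1 and shRASSF2-2, ZBED1 -1.54 and 1.33, and GTPBP6 -1.51 and -0.30 (not called). With the flow cell as a covariate or among the libraries that shared a flow cell, SLC25A6 (-0.82) and ZBED1 (1.11) under shRASSF2-2 and GTPBP6 (-0.81) under shRASSF2-1 were not called. Under shRASSF2-1, SLC25A6 was called without control replicate 3 (-1.41) and with a block for replicate number (-0.98). On the recovered reads it was also called there in edgeR (-1.12) and DESeq2 (-1.13). GTPBP6 under shRASSF2-1 was not called without shRASSF2-1 replicate 2 (-1.20). Of 12 genes of the region tested, 2 fell under shRASSF2-1 (median -0.68), and 2 rose and 2 fell under shRASSF2-2 (median 0.20). The levels and changes of CSF2RA and IL3RA are therefore uncertain.

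CSF3R, the G-CSF receptor, was the member that fell under shRASSF2-2. CSF3R is on chromosome 1 from 36466043 to 36483314. It had 2609, 1843 and 2110 in control libraries, 2164, 1955 and 2111 under shRASSF2-1, and 1143, 1106 and 1178 under shRASSF2-2. The shRASSF2-2 libraries lay below all others, and the shRASSF2-1 libraries fell within the control range. CSF3R fell by 0.92 on the log2 scale under shRASSF2-2 (SE 0.12, limma adjusted p = 5.59e-05) and had -0.06 ± 0.12 under shRASSF2-1 (limma adjusted p = 0.677). Scaled to equal totals, its value under shRASSF2-1 was 0.32 and was called (limma adjusted p = 0.0327), below the shift of all genes at that scaling.

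IL7R, the alpha chain of the IL-7 receptor, rose with each shRNA by nearly the same amount. IL7R is on chromosome 5 from 35856891 to 35879603. It had 287, 304 and 248 in control libraries, 1418, 1415 and 1306 under shRASSF2-1, and 1421, 1476 and 1297 under shRASSF2-2. Every knockdown library was above every control, and the knockdown groups overlapped. The changes were 2.30 ± 0.10 (4.93-fold, limma adjusted p = 1.36e-07) and 2.32 ± 0.10 (4.99-fold, limma adjusted p = 2.62e-08), and the difference between the shRNAs was 0.02 ± 0.10 (limma adjusted p = 0.889). Scaled to equal totals, that difference was -0.37 and called (limma adjusted p = 0.0049), where the median of all genes was -0.41.

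The chains that pair with IL7R were low in every group. IL2RG, the common gamma chain shared by IL-2, IL-4, IL-7, IL-9, IL-15 and IL-21 receptors, had 20.6, 38.2 and 45.0 in control libraries, 27.6, 30.1 and 26.3 under shRASSF2-1, and 88.4, 165 and 103 under shRASSF2-2. Its value was -0.23 ± 0.32 under shRASSF2-1 (limma adjusted p = 0.572), and it rose by 1.77 ± 0.32 under shRASSF2-2 (limma adjusted p = 0.00072). The log2 ratio of IL7R to IL2RG was 3.05 ± 0.65 in control libraries, 5.57 ± 0.06 under shRASSF2-1 and 3.60 ± 0.42 under shRASSF2-2. CRLF2, the chain that forms the TSLP receptor with IL7R, had 0, 2.5 and 3.7 in control libraries, 1.0, 0 and 0 under shRASSF2-1, and 13.6, 20.4 and 16.5 under shRASSF2-2. It passed the filter through the shRASSF2-2 group alone and lies in pseudoautosomal region 1, so no fold is given, and its call under shRASSF2-2 did not hold among the libraries that shared a flow cell. TSLP, its ligand, was at 26.1 or less in every library and was not called with either shRNA (0.32 and 1.40), though under shRASSF2-2 it was called without control replicate 2 (1.72) or 3 (1.84). JAK3, which acts with IL2RG, was below the filter, with 0 to 7.9 in all libraries.

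IL6R, the IL-6 receptor, fell 2.99-fold under shRASSF2-1 and was not called under shRASSF2-2. The gene lies on chromosome 1 from 154405343 to 154469450. It had 14169, 9932 and 9102 in control libraries, 3580, 3579 and 3756 under shRASSF2-1, and 10231, 10562 and 10111 under shRASSF2-2. The shRASSF2-1 libraries lay far below all others, and the shRASSF2-2 libraries lay within the control range. IL6R fell by 1.58 on the log2 scale under shRASSF2-1 (SE 0.14, limma adjusted p = 7.3e-06) and had -0.08 ± 0.14 under shRASSF2-2 (limma adjusted p = 0.658). The difference between the shRNAs was 1.501 ± 0.14 (limma adjusted p = 7.29e-06). Within the 7 libraries that shared a flow cell, which hold 1 control, the shRASSF2-2 value was 0.18. With the flow cell as a covariate it was also 0.18 and not called (limma adjusted p = 0.407). A pseudogene, IL6RP1, is annotated, and the sources used here do not give how reads shared with it were counted; no exon bases of IL6R, or of any other member, were shared with another gene in GENCODE v29 basic.

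IL6ST, the gp130 chain through which IL-6 and its relatives signal, had 1720, 1470 and 1264 in control libraries, 2054, 2251 and 1979 under shRASSF2-1, and 1575, 1364 and 1510 under shRASSF2-2. It rose by 0.51 ± 0.12 under shRASSF2-1 (limma adjusted p = 0.00375) and had 0.01 ± 0.12 under shRASSF2-2 (limma adjusted p = 0.963). IL6R and IL6ST therefore moved oppositely under shRASSF2-1. Their log2 ratio was 2.88 ± 0.15 in control libraries, 0.80 ± 0.13 under shRASSF2-1 and 2.80 ± 0.14 under shRASSF2-2.

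IL10RA, the ligand-binding chain for IL-10, rose with each shRNA and more under shRASSF2-2. The gene lies on chromosome 11 from 117986394 to 118003037. It had 642, 576 and 531 in control libraries, 783, 850 and 758 under shRASSF2-1, and 2407, 2515 and 2620 under shRASSF2-2. The 3 groups did not overlap. IL10RA rose by 0.45 ± 0.09 (limma adjusted p = 0.00194) and 2.11 ± 0.09 (limma adjusted p = 2.99e-08), and the difference was 1.66 ± 0.09 (limma adjusted p = 1.55e-07). IL10RB, the chain it signals with, had 2711, 2219 and 2035 in control libraries, 1718, 1784 and 1774 under shRASSF2-1, and 2854, 3039 and 2914 under shRASSF2-2. It fell by 0.39 under shRASSF2-1 (limma adjusted p = 0.00795) and rose by 0.35 under shRASSF2-2 (limma adjusted p = 0.0127). The shRASSF2-1 value was not called when scaled to equal totals (-0.01) or with the flow cell as a covariate (-0.21). The IL10RA to IL10RB log2 ratio was -1.99 ± 0.08 in control libraries, -1.14 ± 0.08 under shRASSF2-1 and -0.22 ± 0.06 under shRASSF2-2. IL10 itself was below the filter, with 0 to 1.7 in control libraries, 1.0 to 9.1 under shRASSF2-1 and 5.7 to 21.5 under shRASSF2-2.

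IFNGR1, the ligand-binding chain for interferon gamma, had the largest rise of the 10 members under shRASSF2-2. IFNGR1 is on chromosome 6 from 137197484 to 137219385. It had 542, 866 and 893 in control libraries, 1824, 1648 and 1634 under shRASSF2-1, and 4375, 4908 and 4609 under shRASSF2-2. The groups were apart in the order control, shRASSF2-1, shRASSF2-2, and control replicate 1 was the lowest. IFNGR1 rose by 1.182 ± 0.17 under shRASSF2-1 (2.27-fold, limma adjusted p = 0.000158) and by 2.63 ± 0.17 under shRASSF2-2 (6.17-fold, limma adjusted p = 2.95e-07). IFNGR2, its partner, had 377, 189 and 163 in control libraries, 427, 462 and 375 under shRASSF2-1, and 859, 427 and 444 under shRASSF2-2. Replicate 1 was high in the control and shRASSF2-2 groups, and control replicate 1 overlapped the shRASSF2-1 libraries. IFNGR2 rose by 0.89 ± 0.33 (limma adjusted p = 0.0388) and 1.27 ± 0.33 (limma adjusted p = 0.0063). The shRASSF2-1 call did not hold without control replicate 2 (0.75), control replicate 3 (0.65) or shRASSF2-1 replicate 1 (0.87), 2 (0.82) or 3 (0.97), nor in edgeR on the recovered reads (0.81).

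IFNAR1, a chain of the type I interferon receptor, fell under shRASSF2-1 and rose under shRASSF2-2. Its gene is on chromosome 21 from 33324395 to 33359864. It had 1275, 1320 and 1169 in control libraries, 894, 867 and 981 under shRASSF2-1, and 2101, 2201 and 2218 under shRASSF2-2. The 3 groups did not overlap. IFNAR1 fell by 0.46 on the log2 scale under shRASSF2-1 (SE 0.08, limma adjusted p = 0.000903) and rose by 0.79 ± 0.08 under shRASSF2-2 (limma adjusted p = 1.32e-05). Scaled to equal totals, its shRASSF2-1 value was -0.08 and not called (limma adjusted p = 0.394), which lay below the median of all genes there. IFNAR2, the other chain, had 1316, 1255 and 1154 in control libraries, 1014, 1079 and 1068 under shRASSF2-1, and 2891, 2751 and 2656 under shRASSF2-2. It fell by 0.24 under shRASSF2-1 (limma adjusted p = 0.0279), a direction that turned to 0.14 when scaled to equal totals, and the call did not hold without control replicate 2 (-0.23) or shRASSF2-1 replicate 1 (-0.21), 2 (-0.25) or 3 (-0.24). It rose by 1.16 ± 0.08 under shRASSF2-2 (limma adjusted p = 5.71e-07). IFNAR2, IL10RB, IFNAR1 and IFNGR2 lie beside each other on chromosome 21, between 33229938 and 33437516. Of these neighbours IFNGR2 rose under shRASSF2-1 and the other 3 fell, and all 4 rose under shRASSF2-2. With the flow cell as a covariate, the shRASSF2-1 values of IL10RB (-0.21) and IFNAR2 (-0.13) were not called.

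Ratios of a chain to its partner within a library depend little on how libraries are scaled. Under shRASSF2-1 the ratio was higher for IL3RA to CSF2RB (difference 1.76), IL7R to IL2RG (2.53) and IL10RA to IL10RB (0.84) and lower for IL6R to IL6ST (-2.08). It was also lower for IFNAR1 to IFNAR2 (-0.22). Under shRASSF2-2 the ratio was higher for IL10RA to IL10RB (1.76) and lower for IL3RA to CSF2RB (-1.79) and IFNAR1 to IFNAR2 (-0.36). IL3RA carries the limit on pseudoautosomal genes given above. Each of these differences had p = 0.1 in the exact two-sided permutation test, the smallest that 3 against 3 libraries can give. The groups overlapped for CSF2RA to CSF2RB (-0.60, exact p = 0.9, and -1.95, exact p = 0.2) and for IFNGR1 to IFNGR2 (0.30, exact p = 1.0, and 1.36, exact p = 0.2). The IFNGR1 to IFNGR2 values rest on control replicate 1: without it the differences were -0.30, with the groups apart, and 0.76. Without control replicate 2 the CSF2RA to CSF2RB difference under shRASSF2-1 was 0.23. The groups also overlapped under shRASSF2-2 for IL7R to IL2RG (0.55, exact p = 0.3) and IL6R to IL6ST (-0.08, exact p = 0.5).

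**Figure D3:**
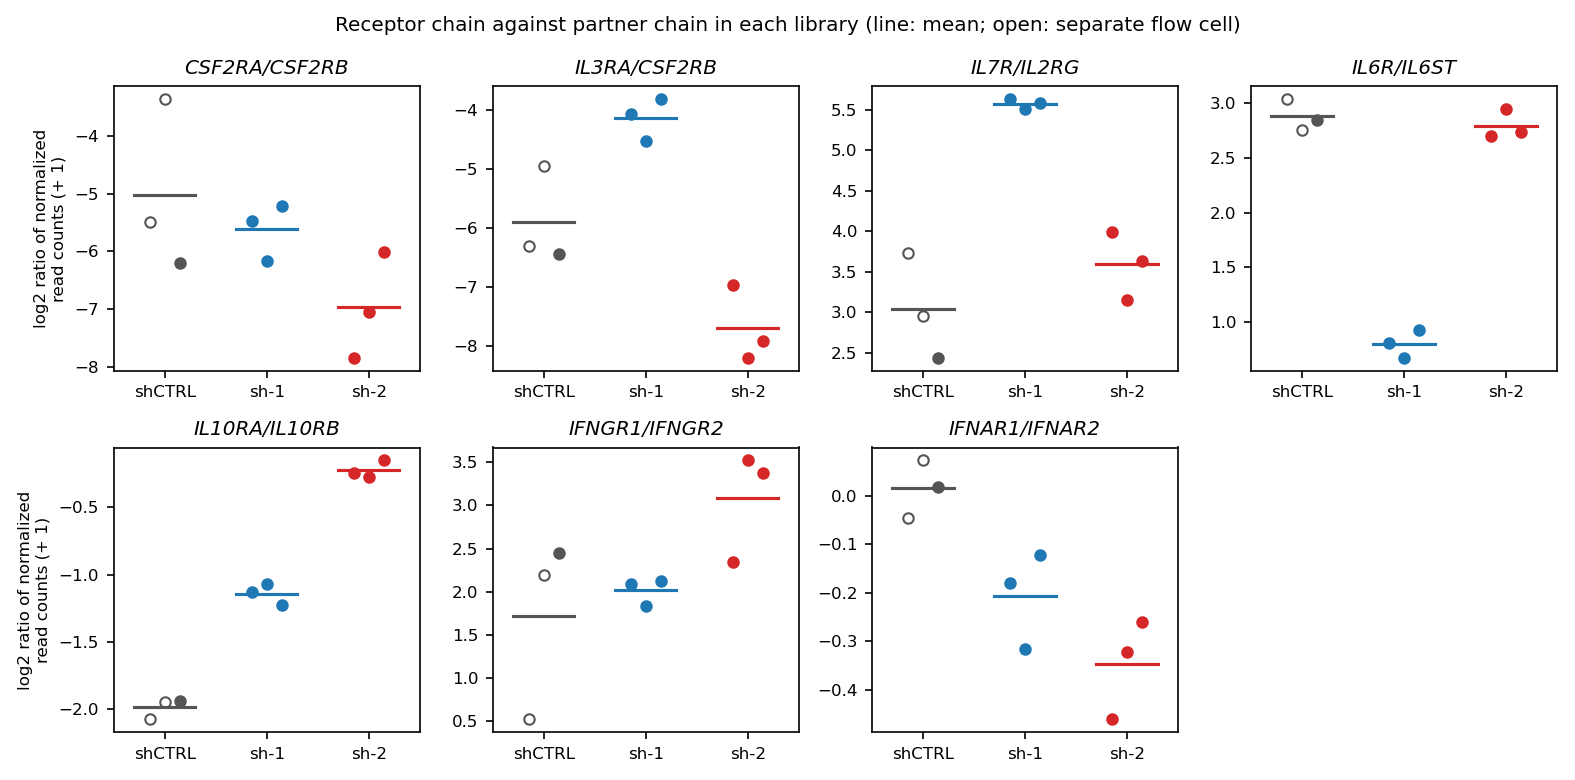
Log2 ratio of each receptor gene to its partner chain in each library (y axis, of normalized read counts + 1; scales differ between panels and do not start at 0) by group (sh-1 is shRASSF2-1, sh-2 is shRASSF2-2); lines are means and open points the 2 controls on a separate flow cell. IL6R to IL6ST falls from 2.88 to 0.80 under shRASSF2-1, and IL10RA to IL10RB climbs from -1.99 over -1.14 to -0.22.

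The order of the receptors by level, per kb of exon so that genes can be compared, differed between the groups. In the controls IL6R led with 1837 normalized reads per kb, followed by CSF3R (633) and CSF1R (627), whose libraries overlapped. IFNGR1 (261) came next, apart from CSF1R, and overlapped with IFNAR1 (204), which overlapped with CSF2RB (199). IL10RA (158), apart from CSF2RB, and IL7R (57.0), CSF2RA (13.8) and IL3RA (9.76) came last. With shRASSF2-1 CSF1R led at 686 per kb, and IL6R (604), CSF3R (601) and IFNGR1 (578) overlapped behind it. With shRASSF2-2 CSF1R led at 2499 per kb, IL6R followed at 1710 and IFNGR1 at 1573, each apart from the next, and CSF3R was at 330, above IL7R (285) but below IFNAR1 (354). CSF3R thus went from the place behind IL6R in the controls to a place below 6 other members under shRASSF2-2.

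**Figure D4:**
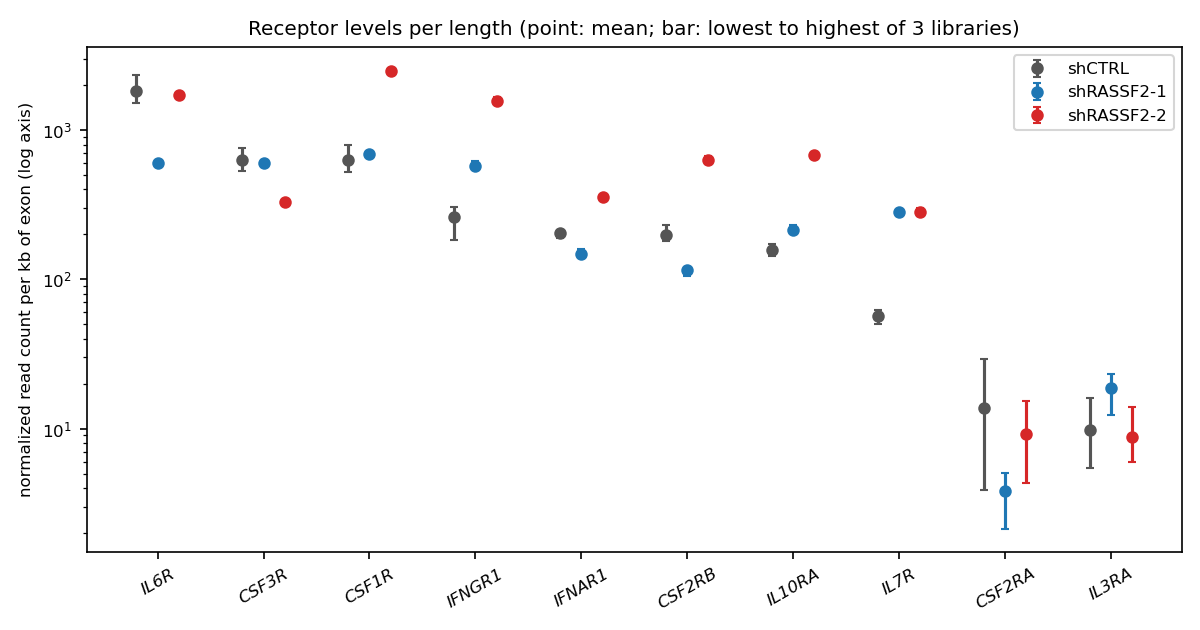
Normalized read count per kb of exon (y axis, log scale) of each receptor gene, ordered by control level, in the 3 groups; points are means and bars span the lowest to the highest of 3 libraries. IL6R leads in the controls (1837) and CSF1R under shRASSF2-2 (2499), while CSF2RA (13.8) and IL3RA (9.76) are the lowest in the controls.

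The kinases and factors through which these receptors signal also differed between the shRNAs. Of 10 JAK and STAT genes tested, 3 rose and 6 fell under shRASSF2-1 (median -0.35). Under shRASSF2-2, 9 rose and 1 was not called (median 1.03). Between the knockdowns, 7 were higher under shRASSF2-2 and 1 was lower. Of all genes, 26.9% rose and 29.2% fell under shRASSF2-1, and 31.8% rose and 29.1% fell under shRASSF2-2. Between the knockdowns 30.0% of all genes were called higher and 28.5% lower. STAT2, a factor of type I interferon signalling, had 2790, 3006 and 3514 in control libraries, 1306, 1162 and 1239 under shRASSF2-1, and 10696, 10234 and 10742 under shRASSF2-2. The shRASSF2-1 libraries were the lowest and the shRASSF2-2 libraries the highest. STAT2 fell by 1.32 (SE 0.10, limma adjusted p = 1.71e-06) and rose by 1.77 ± 0.10 (limma adjusted p = 1.04e-07). JAK2, the kinase of the GM-CSF, IL-3 and interferon gamma receptors, fell by 0.43 and rose by 1.30, and STAT6, which IL-4 and IL-13 activate, rose by 0.35 and 1.12. The JAK2 value under shRASSF2-1 was -0.050 and not called at equal totals, and that of STAT6 was 0.24 and not called with the flow cell as a covariate. When scaled to equal totals, 4 of the 10 rose and 4 fell under shRASSF2-1, where 6981 of all 15465 genes rose and 2596 fell.

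Feedback inhibitors of these pathways were mixed. Of 20 tested, 7 rose and 6 fell under shRASSF2-1 (median 0.11), and 7 rose and 5 fell under shRASSF2-2 (median -0.08). Of all genes, 26.9% rose and 29.2% fell under shRASSF2-1, and 31.8% rose and 29.1% fell under shRASSF2-2. The counts of the lists that follow stand against these same shares. Scaled to equal totals, 12 inhibitors rose and 2 fell under shRASSF2-1, where 6981 of all 15465 genes rose and 2596 fell. USP18, which binds IFNAR2 and damps type I interferon signalling, had 1638, 1106 and 1285 in control libraries, 163, 144 and 138 under shRASSF2-1, and 2579, 2355 and 2848 under shRASSF2-2. It fell by 3.15 and rose by 0.96, with the groups apart (limma adjusted p = 1.44e-07 and 0.000165). PTPN6, the phosphatase SHP-1, fell by 0.47 and rose by 1.08; scaled to equal totals the fall was -0.097 and not called. CBLB, a ubiquitin ligase of receptor and immune signalling, rose by 0.60 and 2.31, and PIAS2, a SUMO ligase, rose by 0.52 and 0.90. CISH and SOCS2, inhibitors that STAT5 induces and that were picked after their values were seen, had -1.49 and -1.35 under shRASSF2-2 and were called, while under shRASSF2-1 they had 0.30 (not called) and 1.05.

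**Figure D5:**
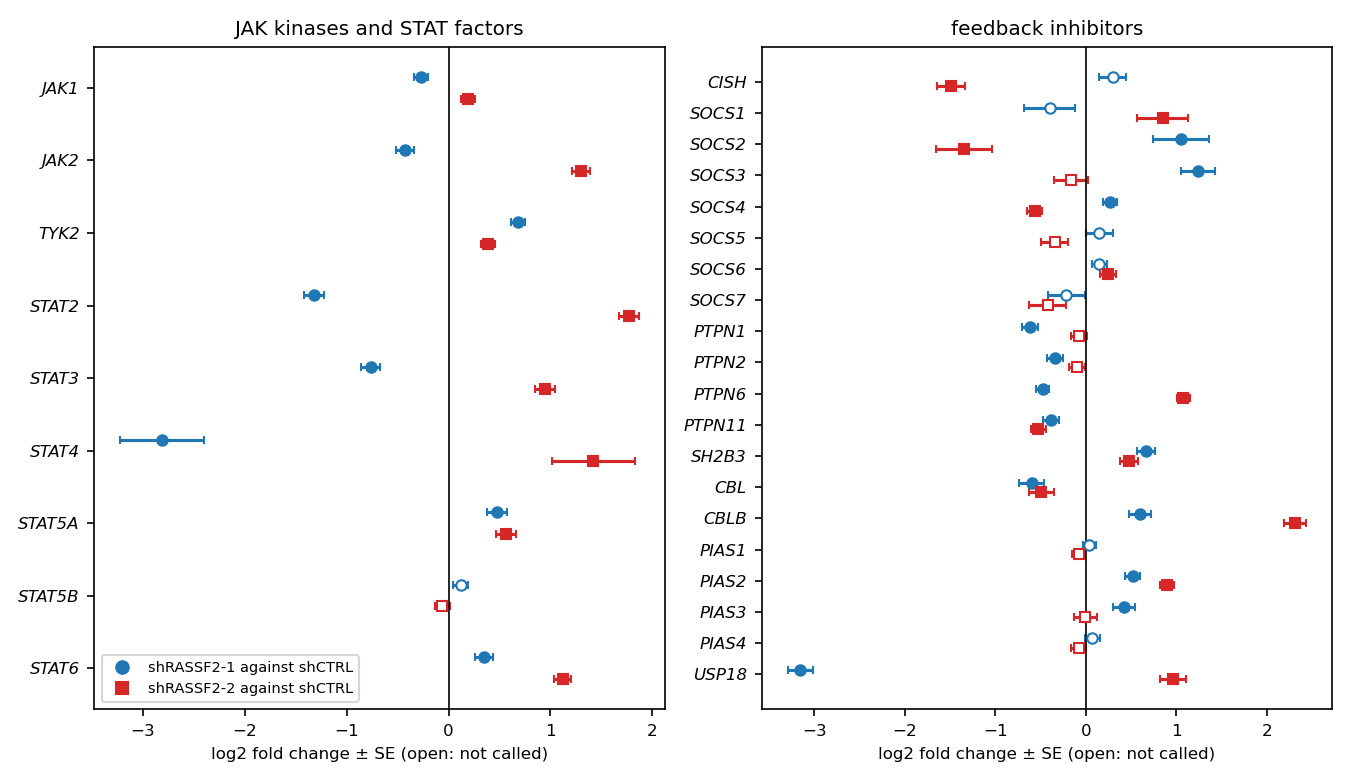
Log2 fold change against control (x axis, of normalized read count + 1) with its standard error for 9 JAK and STAT genes (left) and feedback inhibitors (right); circles are shRASSF2-1, squares shRASSF2-2, and open points were not called. STAT2 and USP18 lie left of 0 under shRASSF2-1 (-1.32 and -3.15) and right of it under shRASSF2-2 (1.77 and 0.96).

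Genes known as targets of STAT5 and STAT3 did not move as a block. Of 17 tested, 6 rose and 4 fell under shRASSF2-1 (median 0.16), and 8 rose and 6 fell under shRASSF2-2 (median 0.21). BCL6, a repressor, had 110, 97.2 and 99.4 in control libraries, 199, 178 and 189 under shRASSF2-1, and 795, 717 and 784 under shRASSF2-2, and rose by 0.88 and 2.89. PIM1, a survival kinase, had 135, 144 and 131 in control libraries, 66.7, 76.9 and 68.9 under shRASSF2-1, and 760, 624 and 714 under shRASSF2-2. It fell by 0.94 and rose by 2.34 (limma adjusted p = 0.000123 and 1.08e-07). BCL3, a cofactor of NF-kB, rose by 2.34 and 1.01, more under shRASSF2-1. BCL2L1, which encodes the survival protein BCL-xL, had 0.16 under shRASSF2-1 (not called; 0.24 and called without control replicate 1, and 0.54 and called at equal totals) and rose by 0.98 under shRASSF2-2.

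Among 21 transcription factors known to act on myeloid receptor genes, 6 rose and 5 fell under shRASSF2-1 (median 0.11), and 10 rose and 5 fell under shRASSF2-2 (median 0.23). IRF8, a factor of monocyte and dendritic cell development, had 7550, 9139 and 8899 in control libraries, 1875, 1797 and 2029 under shRASSF2-1, and 1376, 1222 and 1235 under shRASSF2-2. It fell by 2.16 and 2.73 (limma adjusted p = 1.41e-07 and 8.4e-09). MYB, a factor of progenitor growth, fell by 0.48 and 2.64, and IRF1, which interferon gamma induces, had 0.11 (not called) and rose by 2.24. At equal totals the shRASSF2-1 values were -0.099 for MYB, no longer called, and 0.48 for IRF1, now called. A factor of each family whose letters are marked in the promoters is named here after the values were seen. SPI1, which encodes PU.1, rose by 0.28 and 0.64, CEBPA fell by 0.70 and 0.63, and RUNX1 had -0.17 (not called) and fell by 1.31. Other members of these families are given from the authors' deposited table alone, which holds a single comparison of knockdown with control. Within each family the members did not all share a direction there. SPI1 had 0.46, ETS1 0.45, ETS2 0.68, ELF1 -0.03 and FLI1 -0.18. CEBPA had -0.67, CEBPB 0.65, CEBPD 0.92 and CEBPE -0.01. RUNX1 had -0.60, RUNX2 0.67 and RUNX3 0.70. Of these, SPI1, CEBPA and RUNX2 had adjusted p-values under 0.05.

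Of 25 other receptors of hematopoietic and immune cells, 8 rose and 9 fell under shRASSF2-1 (median 0.19), and 10 rose and 8 fell under shRASSF2-2 (median 0.18). Scaled to equal totals, 12 rose and 4 fell under shRASSF2-1, where 6981 of all 15465 genes rose and 2596 fell. FLT3, a receptor tyrosine kinase of progenitors, had 486, 454 and 411 in control libraries, 53.3, 36.2 and 52.6 under shRASSF2-1, and 105, 151 and 133 under shRASSF2-2. KIT, the stem cell factor receptor, had 393, 425 and 419 in control libraries, 121, 91.1 and 106 under shRASSF2-1, and 41.9, 78.3 and 30.8 under shRASSF2-2. Both progenitor receptors fell, and every knockdown library lay below every control, with log2 fold changes of -3.24 and -1.80 for FLT3 and -1.96 and -3.12 for KIT. CSF1R, of the same kinase family, had 0.15 (not called) and rose by 2.02. TGFBR2, a TGF-beta receptor, rose by 1.91 and 1.38. TNFRSF1B, a TNF receptor, rose by 1.17 under shRASSF2-2, and its -0.25 under shRASSF2-1 turned to 0.13 when scaled to equal totals and lost its call when control replicate 2 (-0.22) or either replicate 1 (-0.22) or 3 (-0.25) of that knockdown was left out.

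Genes that cut receptors from the surface or send them for breakdown gave 3 up and 1 down of 8 under shRASSF2-1 (median 0.22), and 3 up and 4 down under shRASSF2-2 (median -0.47). CBLB is in this group as well. RHBDF2, a partner of the shedding protease ADAM17, had 676, 421 and 500 in control libraries, 426, 473 and 435 under shRASSF2-1, and 2226, 1948 and 2155 under shRASSF2-2, and rose by 2.01 under shRASSF2-2 (limma adjusted p = 1.06e-06); its shRASSF2-1 value of -0.23 was not called, but was -0.39 and called without control replicate 2. NEDD4, a ubiquitin ligase, fell by 1.04 under shRASSF2-2 and had 0.18 under shRASSF2-1 (not called; 0.56 and called at equal totals). SH3KBP1, an adaptor of CBL in receptor uptake, rose by 0.35 under shRASSF2-1 and fell by 0.44 under shRASSF2-2. Of 14 ligands of the receptors, 7 were not analysed here and 5 were below the filter, so that CSF1 and TSLP were the ligands tested; the interferon gene IFNB1 was at 9.4 or less in every library.

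Markers checked the labelled cell type. All 12 monocyte markers were detected, and their summed normalized counts were 25680 to 27677 in control libraries, 24941 to 26843 under shRASSF2-1 and 62728 to 65213 under shRASSF2-2. Of these, 6 rose and 3 fell under shRASSF2-1 (median 0.27), and 9 rose and 2 fell under shRASSF2-2 (median 2.02); CSF1R, IL10RA and IFNGR1 were highest in the same shRASSF2-2 libraries, and the part of monocyte markers in their values was not tested. In bulk RNA, fewer cells of a type and less RNA per cell cannot be told apart. T cell markers, which matter because T cells express IL7R, summed to 16.6 to 38.7, 37.1 to 45.4 and 28.4 to 31.9; CD3D was not analysed here, and CD3E was at 3.6 or less in every library. Of the 2 T cell markers tested, 1 rose with each shRNA (CD5 under shRASSF2-1, CD247 under shRASSF2-2). Neutrophil markers, which matter because neutrophils express CSF3R, summed to 545 to 606, 307 to 358 and 135 to 183; this was CXCR2 and CAMP, of which 2 fell under shRASSF2-1 and 1 under shRASSF2-2, and the other 4 were not analysed here. B cell markers summed to 645 to 1252, 274 to 297 and 1390 to 1564, mostly PAX5, and 1 of 3 tested rose and 1 fell with each shRNA. NK cell markers summed to 138 to 143, 53.3 to 83.1 and 97.6 to 118, with 1 of 3 down under shRASSF2-1 and 2 up and 1 down under shRASSF2-2. Erythroid and megakaryocyte markers summed to 28.1 or less in every library, and the 1 tested was not called. Epithelial and connective tissue markers summed to 39.9 to 402, 194 to 1081 and 604 to 818, with 2 of 4 up under shRASSF2-1 and 4 up under shRASSF2-2; among the 7 libraries that shared a flow cell at most 1 of the 4 was called with either shRNA. The part of these lists in the receptor values was not tested.

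Some genes outside the family tracked 2 of its members closely over the 9 libraries. Of 11503 genes averaging 5 CPM or more, those most like IL7R were P4HA2, a collagen prolyl hydroxylase subunit (r = 0.996), ABCC3, an export pump (r = 0.994), and ITGAM, the integrin CD11b (r = 0.994). For IL10RA they were SGTB (r = 0.998), the kinase gene SGK1 (r = 0.997) and the antigen presentation gene MR1 (r = 0.996). These are Pearson correlations of log2 values over libraries that fall into 3 groups, and they describe the pattern over groups: 194 genes had r above 0.95 with IL7R and 601 with IL10RA.

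The authors' deposited table gives a single comparison of knockdown with control, with no libraries named in its header. In the authors' deposited table IL7R stood at a log2 fold change of 2.30 (adjusted p-value 1.03e-84), place 2 of 18522 genes by adjusted p-value. By the authors' deposited table IFNGR1 had 1.88 (adjusted p-value 5.63e-05), IL10RA 1.37 (0.00863) and CSF1R 1.20 (0.0391). The other members had adjusted p-values above 0.05 in the authors' deposited table: CSF2RB had 0.77 (0.296), IL6R -0.61 (0.272), CSF3R -0.43 (0.272) and IFNAR1 0.28 (0.598), as did CSF2RA with -0.90 (0.25) and IL3RA with 0.43 (0.552). Apart from IL7R, each of these values lies between those of the 2 shRNAs given above, for CSF2RB between -0.78 and 1.68. For IL7R the authors' value, 2.299, was just below those of both shRNAs (2.303 and 2.320).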

How the data were processed

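Poly(A) RNA of THP-1 cells was measured in 9 libraries, grouped 3 and 3 and 3 by the labels, at 13.3 to 20.1 M reads each. Tools listed in the submitters' processing notes are HISAT2 2.1.0, Picard, featureCounts 1.6.2 and, for DESeq2, version 1.18.1, with build hg38; order, annotation and strand setting are not given in the sources used here. The authors deposited a normalized signal per gene. Checked on the file, 100% of these values were whole multiples (tolerance 0.001) of what a read is worth in that library, so reads were recovered by division. The deposited table also holds the authors' log2 fold changes and adjusted p-values. Rows lacking a symbol carried on average 0.071% of reads.

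The test was limma 3.58.1 with a mean trend, in R 4.3.3, on log2(value + 1), a scale that understates changes of low genes. Genes reaching 10 in 3 or more libraries were kept (15465), group was the sole term over all 9 libraries, and p-values were adjusted by Benjamini-Hochberg. The design had named edgeR in case the columns held raw counts. Chain ratios were compared by exact two-sided permutation tests. Alternatives were edgeR 4.0.16 and DESeq2 1.42.0 on recovered reads, scaling to equal totals, other filters and pseudocounts, a replicate block, the flow cell, and leaving out each library. Positions are from RefSeq (GRCh38.p14) and exon lengths from GENCODE v29. The scripts were run on simulated data in which a small part of the genes changed, in the shRASSF2-1 group alone. That run does not test the normalization where most genes are called, as here.

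The members and gene lists were chosen with earlier results of these data known, so counts over them are not independent support. Every member and partner chain is described. From each further list the text names up to 4 tested genes with the smallest p against control; genes named outside this rule are marked as picked after their values were seen. For the 2 members with the smallest p, the 3 most alike genes of at least 5 CPM are named. Some genes that this rule selects are not reported here.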

Additional observations from a re-analysis of the deposited data

Results flagged for a closer look

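The genes below were called in opposite directions with the 2 shRNAs, and the direct limma comparison of shRASSF2-2 against shRASSF2-1, whose fold change uses no control values, called the difference. CSF2RB was higher under shRASSF2-2 by 2.46 ± 0.11 on the log2 scale. IFNAR1 was higher by 1.25 ± 0.08 and IFNAR2, its partner, by 1.39 ± 0.08. IL10RB was higher by 0.74 ± 0.10 and TYROBP by 3.30 ± 0.21. Residual RASSF2 was also higher under shRASSF2-2 than under shRASSF2-1, at 311 ± 43.5 against 164 ± 32.2 (n = 3 each); its part in these differences was not tested. At equal totals the shRASSF2-1 values were -0.08 for IFNAR1, -0.012 for IL10RB, -0.28 for TYROBP and 0.14 for IFNAR2, none of them called, while CSF2RB stayed called at -0.40. The shRASSF2-1 calls of IFNAR2 and TYROBP also ended when some single libraries were left out. Those of IL10RB (-0.21) and IFNAR2 (-0.13) ended with the flow cell as a covariate.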

How the results depend on the processing

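Across all alternatives, 6 to 8 members were called under shRASSF2-1, 7 to 8 under shRASSF2-2 and 7 to 9 between the knockdowns, and the counts over all genes stayed within 6420 to 10231, 7484 to 10710 and 7888 to 11022. No replicate pairing came out of the data, with same-numbered libraries correlating between -0.16 and 0.12; with the replicate block 8289, 9126 and 8754 genes were called, and 6, 7 and 7 members. Of the chain ratio differences, those whose direction turned were CSF2RA to CSF2RB under shRASSF2-1 (0.23 without control replicate 2 and 0.58 on the shared flow cell) and IFNGR1 to IFNGR2 under shRASSF2-1 (-0.30 without control replicate 1 and -0.43 on the shared flow cell). Directions that turned belong, but for IFNAR2 and TNFRSF1B under shRASSF2-1 and PIAS2 between the knockdowns, to values not called, and the cause was not tested. Scaling to equal totals gave, under shRASSF2-1, CSF3R 0.32, IL2RG 0.14, IFNAR2 0.14, TNFRSF1B 0.13 and RHBDF2 0.15; under shRASSF2-2, IL6ST -0.0069; and between the knockdowns, IL7R -0.37, IFNGR2 -0.012 and PIAS2 -0.012. The flow cell as a covariate, and the 7 libraries of the shared flow cell, gave TSLP -0.56 under shRASSF2-1 and, under shRASSF2-2, CSF2RA 1.01, IL3RA 0.53, IL6R 0.18 and GTPBP6 0.39. On recovered reads IL6ST under shRASSF2-2 was -0.031 (edgeR TMM), -0.0026 (edgeR with size factors) and -0.0023 (DESeq2), and IL7R between the knockdowns was -0.018 (edgeR TMM). Leaving out single libraries gave ranges of -0.18 to 0.073 for CSF3R and -0.44 to 0.76 for TSLP under shRASSF2-1. Under shRASSF2-2 they were -0.91 to 0.49 for CSF2RA, -0.48 to 0.29 for IL3RA, -0.20 to 0.12 for IL6R, -0.10 to 0.12 for IL6ST and -0.71 to 0.040 for GTPBP6. For IL7R between the knockdowns the range was -0.023 to 0.071. The shared flow cell leaves 1 control, which is assumed to vary like the other groups. Low read counts limit the precision for CSF2RA and IL3RA.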
